A study of Trichoderma reesei QM6a with 4 samples.

Results

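The genes described here are 7 whose messages are commonly taken as a fixed yardstick, or whose proteins belong to the core machinery of transcription and translation, in the filamentous fungus Trichoderma reesei. They were taken as all probes that carry one of 7 array gene names: ASTRICH46958 (tef1, symbol tef1a in the reference table), ASTRICH44504 (actin), ASTRICH119735 (gpd1), ASTRICH61470 (sar1), ASTRICH120235 (tef2), ASTRICH79225 (rpb2) and ASTRICH5041 (tfiiea). This gave 34 of the 43565 gene probes and 7 of the 9127 genes on the array. The name actin comes from the list of genes alone, since the reference table gives that locus no symbol. The 7 were selected on their measured differences between the strains under several scalings: tef1, actin, gpd1 and sar1 as common references, and tef2, rpb2 and tfiiea as core genes that had come out higher. Those differences are therefore given as descriptions, with no test.

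Messenger RNA was measured on 4 single-colour Agilent arrays. Of these, 2 held RNA of AT01, a mutant strain that accumulates copper to a high degree per the labels, and 2 held RNA of the wild-type strain (WT). Mycelium of both strains came from YPD, a rich general-purpose medium, supplemented with 1 mM CuSO4 and kept at 25 °C for 5 days, so no array shows either strain without added copper. The labels give neither the origin of AT01 nor whether repeats were grown apart, so p-values measure only the spread between arrays, which may be technical.

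An array, like a quantitative PCR, reads relative amounts, and a level in one sample means something only against a scale shared by the samples. Reference genes are chosen for that scale because every growing cell needs them: translation elongation factors bring aminoacyl-tRNA to the ribosome and move the ribosome along, actin forms filaments of the cytoskeleton, and glycolytic enzymes carry sugar breakdown. In filamentous fungi, sar1, a small GTPase gene of vesicle formation at the endoplasmic reticulum, and tef1 are among the genes used in this way. Need for a gene in every cell does not make its message constant between strains, which is why several references are usually compared with each other.

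The scale is the open point of these arrays, because the AT01 arrays were brighter. The 75th percentile of the processed signal, Agilent's background-subtracted spot brightness on a linear scale, was 41.1 and 39.6 on the AT01 arrays, against 20.6 and 21.99 on the WT arrays. On the log2 scale this was a shift of 0.92 over all probes, and of 0.82 over probes well above background on all 4 arrays. The 14 bright corner spots do not read the fungal RNA. Their median signals were 13546 and 24035 on the AT01 arrays, against 21804 and 15123 on the WT arrays. The strains overlapped there, and the 2 AT01 arrays lay far apart. The 36 control spots named DCP had medians of 8.68 and 4.93 on the AT01 arrays, against 4.76 and 3.38 on the WT arrays. Of the 130 named ETG, 19 and 17 were well above background on the AT01 arrays, against 13 and 11 on the WT arrays. The E1A spike-in controls, RNAs that can be added in known amounts to give an outside scale, offered none here. In all, 55 and 38 of the 320 E1A spots lay well above background on the AT01 arrays, against 43 and 38 on the WT arrays, and 32 of them on each array belonged to a single probe sequence. That sequence, E1A_r60_a22, had median signals of 54.3 and 44.7 on the AT01 arrays, against 44.8 and 49.5 on the WT arrays, so its strains overlapped. All 4 arrays came from 1 scan of 1 slide. The part of this brightness in the differences below was not tested, and in bulk RNA fewer cells of a type cannot be told apart from less RNA per cell.

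Before any scaling, all 7 genes read higher in AT01, by amounts that ran from 1.24-fold for gpd1 to 3.15-fold for tfiiea. For all 7 the AT01 arrays lay outside the WT range, as they did, in either direction, for 87.2% of the 8005 genes tested. After each array's 75th percentile was subtracted, tef1, actin and gpd1 lay lower in AT01 and sar1, tef2, rpb2 and tfiiea higher. Again all 7 had arrays that did not overlap, against 76.5% of the genes tested. With quantile normalization 6 of the 7 did not overlap, 5 above and 1 below, against 65% of the genes tested, and with cyclic loess likewise 6, against 64.8%. Since the genes were selected on this contrast, nothing is read from these shares. The median over the genes tested was 0.69 before scaling and -0.23 after it, on the log2 scale.

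**Figure D1:**
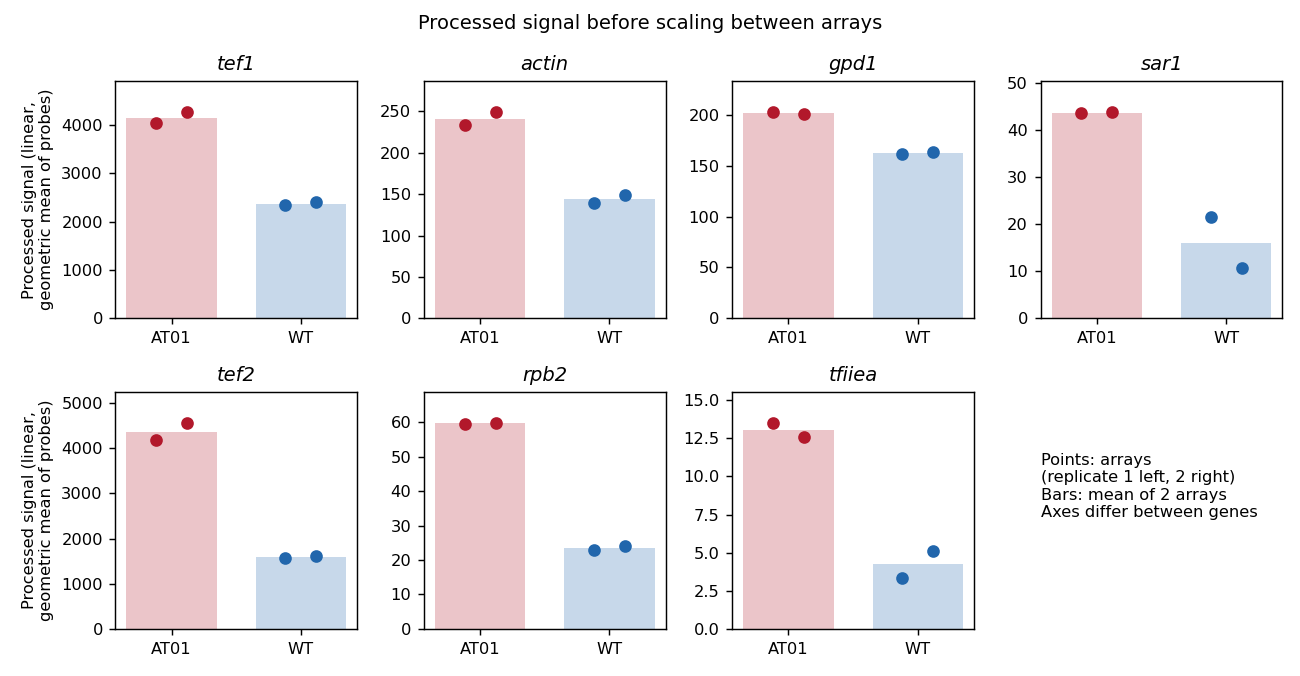
Processed signal on a linear axis, as the geometric mean over the probes of each gene before scaling between arrays; points are arrays, bars are means of the 2 arrays of AT01 (left) and of WT (right), and each gene has its own axis. Both AT01 arrays lie above both WT arrays in all 7 genes, with gpd1 closest at 203 and 201 in AT01 against 162 and 164 in WT.

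The translation elongation factor 1-alpha gene tef1 was bright on every array, with a processed signal of 4031 and 4269 on the AT01 arrays, against 2336 and 2402 on the WT arrays (geometric mean over its 5 probes). On the scaled log2 scale it read 6.61 and 6.75 in AT01, against 6.82 and 6.77 in WT. The strains did not overlap, but the lowest WT array and the highest AT01 array lay closer to each other than the 2 AT01 arrays did. The difference, AT01 minus WT, was -0.11 ± 0.12 (SE of the fit over all genes, n = 2 arrays per strain), within its error. After quantile normalization the difference was 0.59 ± 0.13, and after cyclic loess it was 0.65 ± 0.14; both methods let the correction vary with brightness. In the authors' deposited table the log2 values were 11.82 and 12.03 in AT01, against 11.36 and 11.28 in WT. So the AT01 arrays of tef1 lay just below the WT arrays by percentile scaling and above them by these other treatments.

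The actin gene gave 233 and 249 in AT01, against 139 and 149 in WT, as unscaled processed signal over its 5 probes. On the scaled log2 scale it read 2.503 and 2.65 in AT01, against 2.76 and 2.76 in WT. Its difference was -0.18 ± 0.12 (SE, n = 2 arrays per strain) with the 75th percentile, -0.08 ± 0.12 with the percentile of detected probes, 0.06 ± 0.13 after quantile normalization and 0.12 ± 0.14 after cyclic loess. The sign turned between scalings, but each of these 4 differences lay within 1.5 standard errors of 0. With quantile normalization the arrays read 7.48 and 7.67 in AT01, against 7.53 and 7.50 in WT, so the strains overlapped. Over 5 scalings (the 75th percentile over all or over detected probes, the median, quantile normalization and cyclic loess) its largest difference in size was 0.18, and 14.2% of the 1575 genes with every probe well above background on all arrays were steadier by that measure. Among the 7 genes, with sar1 read by all 4 of its probes, this largest difference was smallest for actin. Its difference still ranged over 0.30 between scalings, against 0.10 for sar1, rpb2 and tfiiea each. That 0.10 is set by the scalings and is the least that any gene can show. The 75th percentile moved by 0.92 over all probes and by 0.82 over detected probes, a step that every gene shares. The measure was not computed for sar1 without its probe at background, described below, where its difference was 0.05 with the 75th percentile.

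The glyceraldehyde-3-phosphate dehydrogenase gene gpd1, a glycolytic gene whose promoter is widely used to drive other genes in fungi, showed the smallest brightness gain. Its unscaled signal was 203 and 201 in AT01, against 162 and 164 in WT, over 5 probes. On the scaled log2 scale it read 2.30 and 2.34 in AT01, against 2.97 and 2.90 in WT, a gap several times wider than either pair of arrays. The difference was -0.61 ± 0.12 (SE, n = 2 arrays per strain) with the 75th percentile, and it kept its sign in all 5 scalings, between -0.61 and -0.31. With normexp, a background correction that adds an offset to every spot, it was -0.11. Such an offset shrinks the differences of dim genes most, but gpd1 lay in the brightest decile of the genes tested. The cause of its move was not tested. Of the alternatives run, it turned positive only without any scaling, at 0.31 ± 0.12, which is short of the 0.92 by which the arrays' 75th percentile moved. Of the 1575 genes with every probe detected, 63.9% had a smaller largest difference.

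The sar1 reading turned on a single spot. Averaged over its 4 probes, the unscaled signal was 43.6 and 43.9 in AT01, against 21.5 and 10.6 in WT, where the 2 WT arrays stood far apart. The probe CUST_3407_PI425855213 gave 66.9 and 65.7 in AT01, against 32.5 and 1.57 in WT. On WT array 2 that spot had a median pixel value of 38 over a local background of 38, whereas on WT array 1 it had 78 over 37 and on both AT01 arrays 111 over 38. The extraction software set no outlier flag there. With all 4 probes the difference was 0.61 ± 0.33 (SE, n = 2 arrays per strain), and without WT array 2 it was 0.06. Leaving that probe out on every array, a choice made after its values were seen, gave -0.12 and -0.04 in AT01 against -0.14 and -0.13 in WT on the scaled log2 scale. The difference was then 0.05 ± 0.12, within its error. The remaining probes did not move as a unit, with differences of -0.13, 0.43 and -0.13.

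The other translation gene, tef2, whose symbol marks an elongation factor, also read bright on every array. Its unscaled signal over 5 probes was 4174 and 4568 in AT01, against 1566 and 1605 in WT. On the scaled log2 scale it read 6.67 and 6.85 in AT01, against 6.25 and 6.19 in WT, with no overlap. The difference was 0.54 ± 0.13 (SE, n = 2 arrays per strain) with the 75th percentile and 1.24 ± 0.14 with quantile normalization. It stayed above 0 in all 5 scalings, and 94.9% of the 1575 genes with every probe detected had a smaller largest difference. Since tef2 was picked as higher on these values, its sign and rank carry no further weight.

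The product of rpb2 is a large catalytic-core subunit of RNA polymerase II, which makes messenger RNA. The gene gave 59.4 and 59.8 in AT01, against 22.8 and 24.1 in WT, as unscaled signal over 5 probes. On the scaled log2 scale it read 0.53 and 0.59 in AT01, against 0.14 and 0.13 in WT, with no overlap and little spread. The difference was 0.42 ± 0.12 (SE, n = 2 arrays per strain) and ran from 0.42 to 0.53 over the 5 scalings. It was smaller with normexp, at 0.23, and with the median over probes, at 0.27. Its value in the authors' deposited table, 5.42 and 5.48 in AT01 against 5.01 and 5.00 in WT, gave a like difference of 0.45. That table holds the same arrays, and rpb2 was picked as higher on these values, so its sign and this likeness carry no further weight.

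The gene tfiiea codes for the alpha subunit of TFIIE, a general factor that helps RNA polymerase II open the promoter. It was dim, with unscaled signals of 13.5 and 12.6 in AT01, against 3.37 and 5.11 in WT, and only 1 probe of 5 was detected on all 4 arrays. On the scaled log2 scale it read -1.60 and -1.65 in AT01, against -2.62 and -2.11 in WT, so the WT arrays were spread more widely than the AT01 arrays. The difference was 0.73 ± 0.19 (SE, n = 2 arrays per strain) with all probes and 0.52 with the 1 probe detected everywhere. That probe gave 26.1 and 27.0 in AT01, against 9.34 and 10.2 in WT. The difference was 0.48 without WT array 1 and 0.99 without WT array 2, and -0.07 with normexp.

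**Figure D2:**
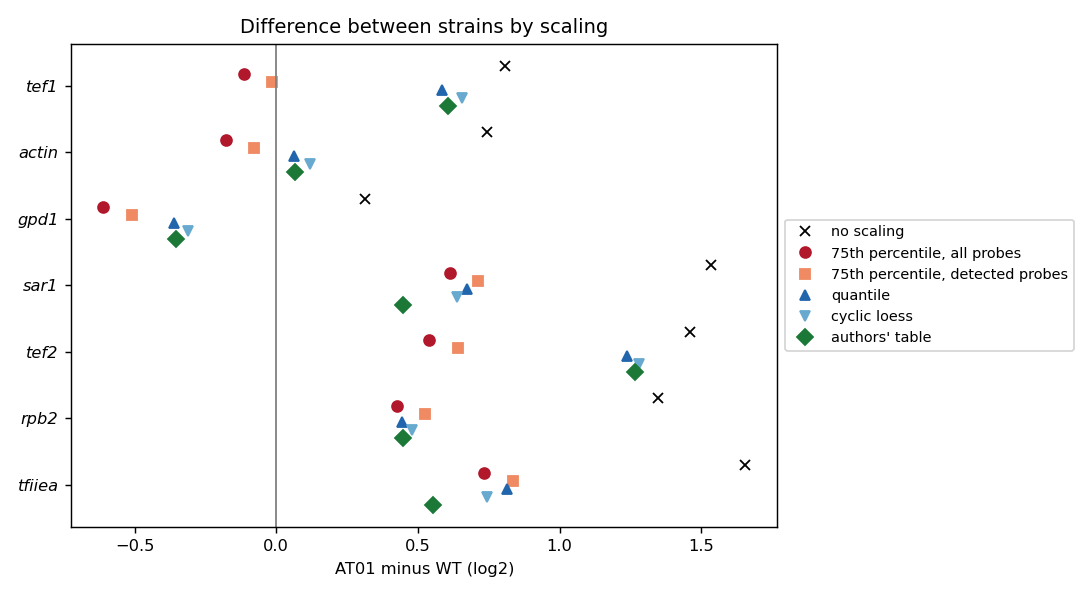
Difference between strains (AT01 minus WT, log2) for each gene under 6 treatments of the same arrays. The points of rpb2 with scaling lie between 0.42 and 0.53, whereas those of tef1 run from -0.11 with the 75th percentile to 0.65 with cyclic loess.

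The choice of scaling moved the 2 elongation factor genes most. From the 75th percentile to quantile normalization, the differences of tef1 and tef2 rose by 0.70 on the log2 scale each, that of gpd1 by 0.25, that of actin by 0.24, and those of rpb2, sar1 and tfiiea by at most 0.08. The unscaled difference over all genes tested varied with brightness as well. Its median was 0.40 in the dimmest decile of genes, 0.89 in the eighth and 0.74 in the brightest. In that brightest decile, whose quartiles were 0.36 and 1.19, tef1 at 0.81 and actin at 0.74 lay close to the median. There tef2 at 1.46 lay above the upper quartile and gpd1 at 0.31 below the lower one. Above the upper quartile of their own decile lay rpb2 (1.35, against 1.24), sar1 with all 4 probes (1.54, against 1.26) and tfiiea (1.66, against 1.05). Without the probe at background sar1 stood at 0.98, inside its quartiles. The quartiles are a description of all genes, and since tef2, rpb2 and tfiiea were picked as higher, their place above them carries no further weight.

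**Figure D3:**
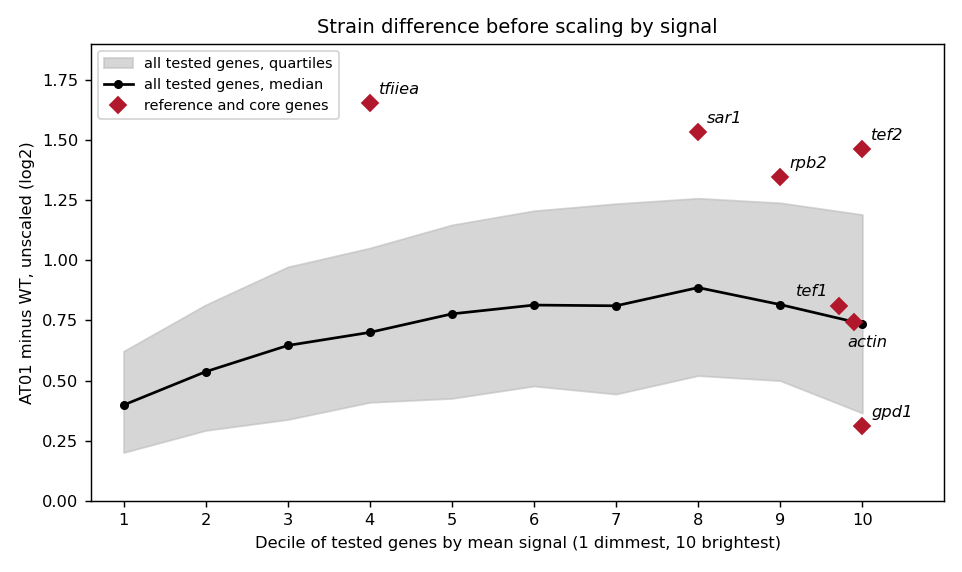
Unscaled difference between strains (AT01 minus WT, log2) against the decile of the 8005 tested genes by mean signal; the line is the median, the band the quartiles and diamonds the 7 genes, with tef1 and actin drawn slightly left of decile 10. The median rises from 0.40 in the dimmest decile to 0.89 in the eighth, and tef1 (0.81) and actin (0.74) lie close to it.

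The probes of one gene did not give one difference. Each gene was read by 4 or 5 different probes. Their brightness is not comparable, so the change that each showed between strains was set side by side. In tef1 the unscaled difference was 1.07 at its brightest probe and fell in step with probe brightness through 1.04, 0.83 and 0.64 to 0.46 at its dimmest. In actin it ran from 1.01 at the brightest probe to 0.43 at the fourth. In tef2 it ran from 1.73 at the probe ranked second to 1.07 at the dimmest. In gpd1 one probe, ranked second in brightness, stood apart at 0.83, while the others lay at 0.15, 0.40, 0.11 and 0.08. In rpb2 there was no such order, with the dimmest probe at 1.63 and the brightest at 1.51. Across probes the SD of the difference was 0.26 in tef1, 0.21 in actin, 0.31 in gpd1, 0.25 in tef2 and 0.23 in rpb2. Over 1530 genes with at least 4 probes, all detected on every array, the median SD was 0.23, so these 5 genes spread about as much as others. The slope of the difference on probe brightness was positive in 55.7% of those genes, and in 4 of the 7 members. For sar1 the SD was 1.149, with the spot already described. The software's own error for a spot's signal was about 10% of the signal for the probes of tef1 and tef2, reached 22.1% in rpb2, and in the dimmest spots of tfiiea was as large as the signal.

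**Figure D4:**
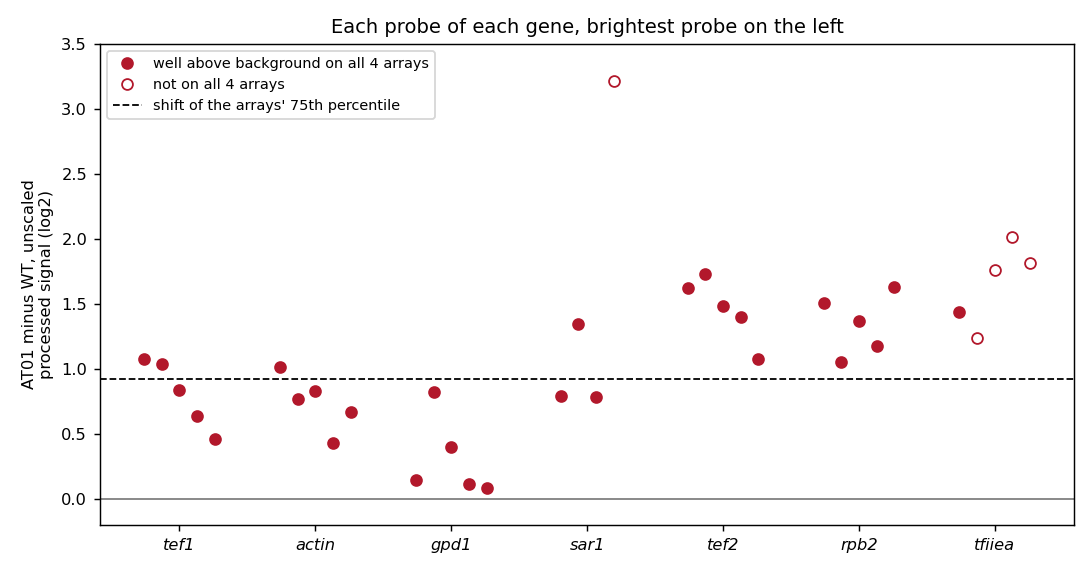
Unscaled difference between strains (AT01 minus WT, log2 of processed signal) for each of the 34 probes, ordered within a gene from brightest to dimmest; filled points were well above background on all 4 arrays, and the dashed line is the 0.92 shift of the arrays' 75th percentile. The 5 probes of tef2 and of rpb2 all lie above the line, 4 of them between 1.40 and 1.73 in tef2, whereas gpd1 lies below it with every probe.

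Ratios of 2 genes within an array do not depend on a common brightness factor, and they show unequal change without saying which gene moved. Of the 21 ratios between the 7 genes, 16 had AT01 arrays outside the WT range, and 19 had them without the sar1 probe at background, against 70.5% of the ratios between any 2 of the 8005 genes tested. These ratios share genes and arrays and are not independent, and the genes were selected on this contrast, so nothing is read from the count. The ratio of tef1 to actin changed least, with log2 values of 4.11 and 4.10 in AT01, against 4.07 and 4.01 in WT, a difference of 0.06 or 1.05-fold. The strains did not overlap, and the gap between the 2 WT arrays was 0.05. The ratio of tef2 to rpb2 was 6.13 and 6.25 in AT01, against 6.10 and 6.06 in WT, a difference of 0.11 that was smaller than the gap of 0.12 between the AT01 arrays. The ratio of actin to gpd1 was 0.20 and 0.31 in AT01, against -0.21 and -0.14 in WT, a gain of 0.43. The ratio of tef1 to tef2, the pair of elongation factor genes, was -0.05 and -0.10 in AT01, against 0.58 and 0.58 in WT. It fell by 0.65 on the log2 scale, or 1.57-fold, far outside the spread of either strain. The ratio of gpd1 to rpb2 was 1.77 and 1.75 in AT01, against 2.83 and 2.76 in WT, a difference of -1.04 or 2.05-fold. The ratios within the pairs tef1 and actin, and tef2 and rpb2, changed little, and the ratios across those pairs changed more. Since tef2 and rpb2 were picked as higher, the larger change across the pairs carries no further weight. Without the probe at background, the ratio of tef1 to sar1 differed by -0.17 and that of actin to sar1 by -0.23.

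**Figure D5:**
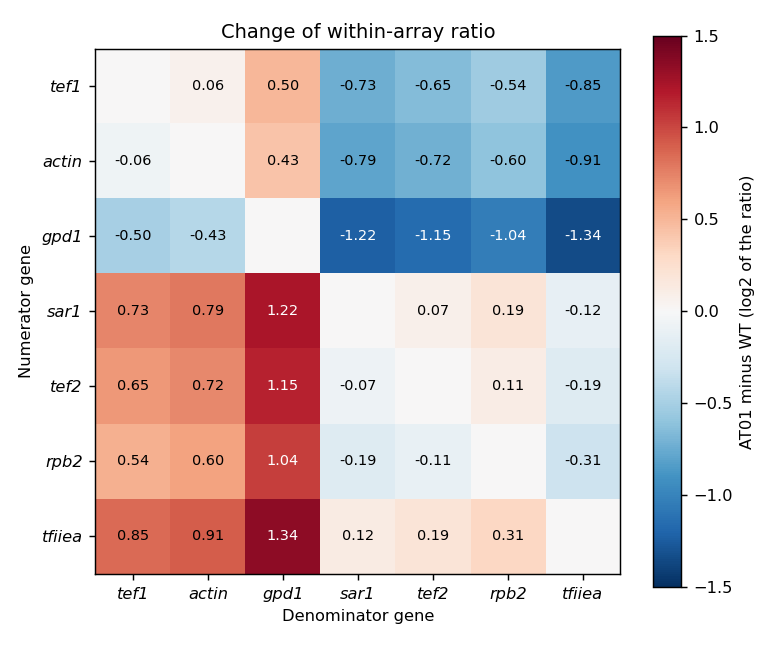
Change between strains (AT01 minus WT) of the log2 ratio of 2 genes on the same array, with the numerator gene in rows and the denominator gene in columns; sar1 is averaged over all 4 probes. Ratios of tef1 to actin (0.06) and of tef2 to rpb2 (0.11) are near 0, and gpd1 as numerator is below 0 against every other gene, to -1.34 against tfiiea.

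Taking 1 of these genes as the yardstick sets what the other genes appear to do. With each array set to its level of actin alone, the median difference over the 8005 genes tested was -0.05, and with tef1 it was -0.11. With gpd1 it was 0.38, and 79.8% of genes then lay above 0, higher in AT01. With rpb2 it was -0.65, with tef2 -0.77, with sar1 (all 4 probes) -0.84 and with tfiiea -0.96, where 7.16% of genes lay above 0. The sar1 yardstick carries the spot at background on WT array 2. Without that probe the unscaled difference of sar1 was 0.98, against 1.54 with all 4 probes. The mean of tef1, actin, gpd1 and sar1 gave -0.16 with the sar1 probe at background and -0.02 without that probe, against -0.23 with percentile scaling. The yardsticks span 1.34 on the log2 scale, from gpd1 to tfiiea, which is the change of their ratio.

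Other genes of the same machinery were described by lists of gene symbols, tested in a fit over all 8005 genes with limma at a Benjamini-Hochberg adjusted p under 0.05. By that rule 47.2% of genes were called with percentile scaling, 14.5% higher and 32.6% lower in AT01, and 26.2% with quantile normalization. Over the lists, 25 genes were tested and 9 were called, 36% of them, with 2 higher and 7 lower and a median difference of -0.20 against -0.23 over all genes tested. With quantile normalization 5 of the 25 were called and the median was -0.03, against -0.02. Without AT01 array 1 the number was 4 of 25, without AT01 array 2 it was 5, and without either WT array it was 6.

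In transcription, neither of the 2 listed genes passed the test. The TATA-binding-protein-associated factor gene taf19 read -3.00 and -2.43 in AT01, against -3.02 and -3.11 in WT, on the scaled log2 scale. None of its probes was well above background on all 4 arrays, and its difference of 0.35 ± 0.20 became a called 0.63 without AT01 array 1. The elongation factor gene spt4 differed by 0.15 ± 0.12 (SE, n = 2 arrays per strain) and was called at -0.73 with its brightest probe alone. In limma 0 of the 2 had an unadjusted p under 0.05. The general factor genes tf2a, at 0.28 ± 0.13, and tf2d, at -0.02 ± 0.12, were added after the symbols had been seen and did not pass either. Without scaling tf2a was called at 1.20 and tf2d at 0.90, and with normexp at 0.17 and 0.36. The gene tf2a was also called with limma's trended and robust variance prior (0.28). With the mean of the 4 references without the sar1 probe, tf2a was called at 0.49. The cytoskeleton list and the list of conidia and spore markers found no symbol on the array, so the label mycelium was not checked against markers.

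In translation, the release factor gene erf1, whose protein ends synthesis at stop codons, fell. It read -0.68 and -0.46 in AT01, against -0.04 and 0.02 in WT, a difference of -0.56 ± 0.13 (limma, Benjamini-Hochberg adjusted p = 0.0174), and -0.56 with quantile normalization. The AT01 arrays lay below both WT arrays, but erf1 missed the threshold without AT01 array 1 (-0.45) or without WT array 2 (-0.53), and with the mean of the 4 references as scale (-0.49). In glycolysis 0 of 3 genes passed the limma test: the enolase gene eno1 lay at -0.20 ± 0.12, the phosphoglycerate kinase gene pgk1 at 0.03 ± 0.12 and the hexokinase gene hxk1 at -0.29 ± 0.13. At an unadjusted p under 0.05 the limma count was 0 as well. With its brightest probe alone pgk1 was called at -0.75, and with limma's trended and robust variance prior hxk1 was called at -0.29. The gpd1 difference of -0.61 lay below all 3, a gap that was not tested.

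Among 11 genes of vesicle transport and small GTPases, the setting of sar1, the GTPase genes rho3 and ras2 rose and the syntaxin gene sso1 fell, while 8 did not pass. The largest was rho3, at 1.75 and 1.86 in AT01, against 0.50 and 0.46 in WT (difference 1.32 ± 0.12, limma's Benjamini-Hochberg adjusted p = 0.00178). The dim gene ras2 differed by 0.63 ± 0.13, and by -0.08 with normexp, while sso1 differed by -0.45 ± 0.13. The call of rho3 held without any single array; that of ras2 was lost without AT01 array 1 (0.58) or 2 (0.68) or with the brightest probe (0.61), and that of sso1 without AT01 array 1 (-0.46) or 2 (-0.45) or WT array 1 (-0.35). The call of sso1 was also lost with the percentile of detected probes (-0.35), the mean of the 4 references (-0.38), the brightest probe (-0.31) and the median over probes (-0.18). The median of the 11 was -0.17, with percentile scaling.

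Further genes sometimes used as references were mostly lower by percentile scaling and mostly not called by quantile normalization. Of 6 tested, the histone genes hh4.1, hh2b, hh3 and hh4.2 and the polyubiquitin gene ubi4 fell with percentile scaling, and hh2a did not pass (-0.09 ± 0.13). The differences were -1.01 for hh4.1, -0.71 for hh2b, -0.63 for hh3, -0.37 for hh4.2 and -0.39 for ubi4. The calls of ubi4 and hh4.2 were lost when any single array was left out (-0.46 to -0.32 and -0.44 to -0.30), and that of hh3 without AT01 array 1 (-0.51). Those of hh2b and hh3 were lost with the brightest probe (-0.52 and -0.46) and the median over probes (-0.65 and -0.46), and that of hh3 with normexp (-0.12) and the mean of the 4 references (-0.56). With quantile normalization hh4.1 alone fell, at -0.51, and ubi4 turned to 0.30, short of the threshold. The gene ubi4 read 6.20 and 6.34 in AT01, against 6.69 and 6.63 in WT, by percentile scaling. The change of scaling moved ubi4 by 0.69, much as it moved tef1.

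Genes whose 4 array values most resembled those of a member were sought among 118 other genes with a symbol and every probe well above background on all arrays, by the root-mean-square distance of centred values over the 4 arrays. Nearest to tef1 were the histone gene hh2a (distance 0.02 on the log2 scale) and ran1 (0.03). Nearest to actin were eno1 (0.02) and the Rab GTPase gene ypt1 (0.04), and nearest to gpd1 were the pyruvate carboxylase gene pyc1 (0.03) and the ribosomal protein gene rps30 (0.03). Both tef2 and rpb2 had arg2 as their nearest gene (0.04 each), followed by tr42600 (0.07) for tef2 and the chaperone gene bip1 (0.07) for rpb2. The nearest genes of sar1 were lxr1 (0.15) and tr42600 (0.36), and those of tfiiea were hfb1 (0.18) and mus8 (0.18). With 4 arrays such likeness mostly restates the strain difference.

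Several genes had a smaller largest difference between strain means than the 4 reference genes. By that measure over the 5 scalings, the lowest among the 118 were pmt1, a protein mannosyltransferase gene (0.06), gfd1 (0.06), psa3 (0.09), the kinase gene gsk3 (0.12) and ire1, a sensor of unfolded proteins in the endoplasmic reticulum (0.13). The gene psa3, for example, gave 49.4 and 49.3 in AT01, against 26.7 and 25.7 in WT, as unscaled signal, and 0.26 and 0.32 in AT01, against 0.37 and 0.22 in WT, on the scaled log2 scale. The measure uses strain means only and not the spread within a strain. The AT01 arrays of ire1 read 1.34 and 1.68 and those of gfd1 0.07 and -0.19 on the scaled log2 scale, further apart than those of actin. The AT01 gaps of pmt1 (0.17) and gsk3 (0.20) were also wider than that of actin, and the AT01 gap of psa3 (0.05) was narrower. On the WT arrays each of these genes had a wider gap than actin. Without AT01 array 1 or 2 the difference was 0.15 or -0.19 for ire1 and -0.17 or 0.09 for gfd1, and gfd1 stood at 0.41 with its brightest probe. By the same measure actin stood at 0.18, rpb2 at 0.53, gpd1 at 0.61, tef1 at 0.65, sar1 at 0.71 with all 4 probes, tfiiea at 0.83 and tef2 at 1.28. For sar1 without the probe at background the measure was not computed. In that case the SD over the 4 arrays of its log2 ratios to the other 6 genes averaged 0.26. That was the lowest of the 7, with tef1 at 0.28 and actin at 0.30. For the other measure, the largest difference over the 5 scalings, the median over the 1575 genes with every probe detected was 0.47. The genes pmt1, gfd1, psa3, gsk3 and ire1 were found by searching the same 4 arrays, so the ranking has no check on others.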

How the data were processed

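The members and gene lists were chosen with earlier results of these data known. The submitters' processing notes name Agilent Feature Extraction 10.5.1.1 for image reading. The deposited intensity values are background-subtracted processed signals, median pixels and software errors on a linear scale, 1 array per sample, per the file headers. The values of the authors' deposited table look like log2: against its own array each column correlated at 0.993 to 0.996 (Pearson, across probes), all 4 medians were 4.31, and it covered 28201 probes, 33 of the 34 member probes included. Its normalization is not given in the sources used here.

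Processed signals were log2-transformed, each array's 75th percentile was subtracted, and probes were averaged per gene. No spot was saturated. The 142 probes outlying on any array were left out on all, so that 43423 remained; otherwise a gene would average different probes on different arrays. Of 9127 genes, 8005 were tested, those with a probe detected on both arrays of either strain, all 7 members included. Strains were compared with limma 3.58.1 in R 4.3.3 (Benjamini-Hochberg), tested on simulated data. The headers hold no mean spot signal, so normexp used the median. Symbols were matched by the shared number (9070 genes, v2.0 assembly of QM6a), 226 with a symbol, and coordinates are left out. Replicate numbers do not pair the arrays in the labels. Named genes are the members, their 2 nearest genes each, the 5 steadiest genes with a symbol, and list genes (all where at most 6 were tested, otherwise the largest called changes). The number of arrays limits the precision.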

Additional observations from a re-analysis of the deposited data

How the results depend on the processing

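The 4 arrays limit everything here: 2 arrays per strain leave few degrees of freedom, all came from 1 scan, so a slide block could not be fitted, and no outside scale was at hand. The direction of tef2 and rpb2 held in every alternative run other than scaling to 1 gene. Both were picked as higher, and some alternatives, such as the replicate block, cannot change a difference, so nothing is read from this. Of 8005 genes, 3776 were called. The number was 2098 with quantile normalization, 2193 with cyclic loess, 5779 without scaling, 2345 with the mean of tef1, actin, gpd1 and sar1 as reference, 5679 with normexp, 1517 with the median over probes and 2369 with the authors' deposited table, and 1584 to 3045 without 1 array, where the lone array of a strain is assumed to vary like those of the other. The share of called genes that were higher was 30.8%, against 58.0% with quantile normalization, 59.1% with cyclic loess, 42.3% with the percentile of detected probes, 41.5% with the mean of the 4 references, 14.9% with normexp, 47.5% with a common lower limit, 44.0% with the median over probes, 50.3% with the authors' table and 99.0% without scaling. Of the 25 list genes, 9 were called, against 5 with quantile normalization, cyclic loess or the authors' table, 22 without scaling, 4 with the mean of the 4 references or the median over probes, and 4 to 6 without 1 array. Of the 7 members, 4 lay above 0, against 7 without scaling, 6 with quantile normalization, cyclic loess, the authors' table or the mean of the 4 references without the sar1 probe, and 5 with normexp or the brightest probe. The shares of all genes tested were 33.6%, against 95.6% without scaling. They were 48.2%, 48.8%, 44.5% and 48.7% under the next 4, 19.3% with normexp and 30.7% with the brightest probe. Nothing is read from the member counts, since the members were selected on this contrast. The median over all genes tested, -0.23, was -0.017 with quantile normalization, -0.011 with cyclic loess, 0.69 without scaling, -0.13 with the percentile of detected probes, -0.16 with the mean of the 4 references, -0.016 with that mean without the sar1 probe, -0.16 with normexp, -0.076 with a common lower limit, -0.37 with the brightest probe, -0.11 with the median over probes, -0.33 with detected probes only, -0.30 with no filter on dim genes and -0.058 with the authors' table. Scaled to 1 gene it was -0.11 (tef1), -0.050 (actin), 0.38 (gpd1), -0.84 (sar1, with its probe at background), -0.77 (tef2), -0.65 (rpb2) and -0.96 (tfiiea). Sign changes under scaling to 1 gene are not listed. Under the other alternatives, every sign change of a member is given here. For the 32 other named genes, sign changes are given where the gene was called with percentile scaling or under the alternative. For tef1 they were 0.59 with quantile normalization, 0.65 with cyclic loess, 0.81 without scaling, 0.39 with normexp, 0.15 with the brightest probe, 0.61 with the authors' table and 0.098 with the mean of the 4 references without the sar1 probe. For actin they were 0.063, 0.12, 0.74, 0.18, 0.090, 0.065 and 0.033 under those same 7. For ubi4 they were 0.30 with quantile normalization, 0.35 with cyclic loess, 0.53 without scaling, 0.11 with normexp and 0.34 with the authors' table. Without scaling, where all values carry the brightness of the AT01 arrays, the others that turned were gpd1 0.31, erf1 0.36, eno1 0.72, hxk1 0.63, sso1 0.47, hh2b 0.21, hh2a 0.83, hh3 0.29, hh4.2 0.55, tf2d 0.90, ran1 0.86, ypt1 0.75, pyc1 0.28, rps30 0.31, pmt1 0.88, gfd1 0.88, psa3 0.92, gsk3 0.85 and ire1 0.91. With normexp the others were tfiiea -0.068, taf19 -0.18, spt4 -0.19, ras2 -0.079, hh2a 0.29, hh4.2 0.080, tf2d 0.36, ran1 0.36, gsk3 0.17 and ire1 0.17. With the brightest probe they were sar1 -0.13, spt4 -0.73, pgk1 -0.75 and hfb1 -0.39, and with detected probes only spt4 -0.73. Sign changes of the other named genes with no call in either fit numbered 7 with quantile normalization, 9 with cyclic loess, 8 with the percentile of detected probes, 7 with the mean of the 4 references (10 without the sar1 probe), 6 with normexp, 11 with the brightest probe, 7 with the authors' table, at most 1 with each other setting on all arrays, and up to 6 without 1 array. Apart from the brightness noted without scaling, the cause was not tested. Leaving the sar1 probe out (by itself, and from the mean of the 4 references) and leaving outlying spots out on their own array only were chosen after seeing the data; they gave 3777, 2624 and 3572 calls, and 61.0% of the 2624 were higher. The replicate numbers do not pair the arrays, since same-numbered arrays' deviations correlated at 0.0057; with the replicate block 4184 genes and 7 of the list genes were called.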
